A study of Mus musculus with 4 samples.

Results

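The genes examined were the 9 members of the LIF, oncostatin M, and IL-6 axis, taken as a list of signaling components, out of 32285 genes in the count tables: the ligands *Lif*, *Osm*, and *Il6*, the receptors *Lifr*, *Osmr*, *Il6ra*, and *Il6st*, the transcription factor *Stat3*, and the inhibitor *Socs3*. They were measured by droplet single-cell RNA-seq in 4 libraries, 1 for each of bone marrow of control mice (CBM) and of tumor-bearing mice (TBM), and spleen of control mice (CS) and of tumor-bearing mice (TS). All mice were C57BL/6J females 8 to 16 weeks old, and the tumor-bearing mice carried subcutaneous PyMT-B6 tumors, a transplanted mammary carcinoma line from an MMTV-PyMT mouse, in which the MMTV promoter drives the oncogene mainly in mammary epithelium. Tissue of every group was digested with collagenase, depleted of lineage-positive cells, stained, and sorted into gates for progenitor, endothelial, and stromal cells that were combined at equal ratios, and the number of mice in a library was not given in the sources used here. With 1 library per group there is no replicate check and no significance test, so the intervals below cover counting error only.

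LIF, oncostatin M, and IL-6 are secreted cytokines that signal through receptors sharing 1 subunit, gp130, which *Il6st* encodes. IL-6 first binds the IL-6 receptor alpha chain (*Il6ra*), whereas LIF and oncostatin M bring gp130 together with the LIF receptor (*Lifr*) or the oncostatin M receptor (*Osmr*). The bound receptor activates JAK kinases, which phosphorylate STAT3, and STAT3 induces SOCS3, an inhibitor that binds gp130 and stops the signal. In bone marrow and spleen, mesenchymal and endothelial cells of the niche are known to carry LIF and oncostatin M receptors, and IL-6 family cytokines act on early progenitors and megakaryocytes.

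Levels are given in CPM, the UMIs of a gene scaled to 1000000 UMIs of a cell class in a library, over barcodes with at least 1000 genes and at most 10% mitochondrial UMIs. This left 3497 barcodes in CBM and 4340 in TBM, and 3236 in CS and 5188 in TS, 16261 in all, with median depths of 13738, 14386, 26322.5, and 26808 UMIs. Barcodes were clustered without the axis genes, and clusters were named only from marker genes. Between 2 and 9 barcode sequences were shared by any pair of libraries. The stromal part of the sort was nearly absent: 7 barcodes held at least 3 of 10 stromal markers, 2 in TBM and 5 in TS, and the endothelial-like class, which includes all 7 of them, had 13, 2, 11, and 7 barcodes in CBM, TBM, CS, and TS, too few for a comparison. The classes that could be compared were hematopoietic.

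*Lif* lies on chromosome 11 at 4257557-4272514 and *Osm* beside it at 4236420-4241026, both on the plus strand of GRCm38, and *Il6* lies on chromosome 5 at 30013114-30019981. *Lifr* and *Osmr* lie on chromosome 15, at 7090614-7197489 and 6813577-6874969. *Il6ra* lies on chromosome 3 at 89864059-89913196, where the annotated gene *Gm42809* overlaps on the other strand, and *Il6st* on chromosome 13 at 112464070-112510086. *Stat3* at 100885098-100939540 on chromosome 11 overlaps *Stat5a* on the other strand, and *Socs3* lies on the same chromosome at 117966079-117970047. RefSeq promoters (GRCm38.p6) were at hand for 8 of the 9 genes. The 250 bases before the start are shown for *Socs3* and the ligands *Lif* and *Il6*, on which the results below turn and which hold a motif there, with capitals marking a STAT motif (TTCNNNGAA) in *Socs3* and an AP-1 motif (TGANTCA) in the ligands, each searched on both strands and identical to its own reverse complement.
Socs3, chr11:117969367-117969616, minus strand: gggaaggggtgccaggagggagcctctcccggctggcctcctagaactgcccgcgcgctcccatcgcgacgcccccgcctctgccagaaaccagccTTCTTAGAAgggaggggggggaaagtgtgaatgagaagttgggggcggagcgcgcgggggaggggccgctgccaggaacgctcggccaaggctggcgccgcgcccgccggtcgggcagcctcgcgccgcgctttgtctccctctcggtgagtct
Lif, chr11:4257318-4257567, plus strand: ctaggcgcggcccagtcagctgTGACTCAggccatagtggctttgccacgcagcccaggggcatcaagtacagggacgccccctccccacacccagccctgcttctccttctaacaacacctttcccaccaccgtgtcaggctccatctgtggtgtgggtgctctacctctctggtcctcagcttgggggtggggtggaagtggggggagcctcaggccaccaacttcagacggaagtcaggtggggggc
Il6, chr5:30012864-30013113, plus strand: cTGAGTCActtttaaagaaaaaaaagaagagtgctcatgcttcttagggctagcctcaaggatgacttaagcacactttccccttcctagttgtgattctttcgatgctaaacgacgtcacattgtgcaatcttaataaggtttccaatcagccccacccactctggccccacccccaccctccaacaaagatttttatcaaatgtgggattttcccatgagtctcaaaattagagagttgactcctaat
The STAT motif of *Socs3* begins 154 bases before the start, the AP-1 motif of *Lif* 228 bases before it, and that of *Il6* 249 bases before it. These starts are those of RefSeq. For *Socs3*, *Osmr*, *Lif*, and each *Lifr* promoter the RefSeq start lies inside the gene span given above. All the *Socs3* bases shown therefore lie within the span of that gene and not upstream of it. The *Lif* bases shown from 4257557 on also lie within the *Lif* span. Over all 32851 RefSeq promoters, taken from 250 bases before to 50 bases after the start, 8.298% held the STAT motif and 7.808% the AP-1 motif. The stricter STAT form TTCCNGGAA, which is contained in the first, was in 1.148% of promoters and in none of the 8 genes' promoters. Apart from *Socs3*, *Lif*, and *Il6*, the only match was an AP-1 motif in *Osmr*, 3 bases after the start. These matches describe letters and are not evidence of binding.

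With the 4 libraries summed, mast or basophil-like barcodes held the largest share of the UMIs of each ligand of all classes. This class held 92.6% of the 5742 *Il6* UMIs, 46.8% of the 12624 *Osm* UMIs, and 40.2% of the 731 *Lif* UMIs. The receptor subunits were distributed differently: 44.8% of the 7070 *Il6ra* UMIs and 47.6% of the 5137 *Il6st* UMIs were in monocyte-like barcodes. *Stat3* was the most abundant and most evenly spread member, with 21704 UMIs in 9727 barcodes. *Socs3* had 5847 UMIs, and 47.0% of them were in the class of hematopoietic stem and progenitor-like barcodes (HSPC-like). *Lifr* was sparse, with 397 UMIs, and *Osmr* had 13 UMIs in 8 barcodes. Of these UMIs 92.3% were in the endothelial-like class, 6 of them in 1 barcode with stromal markers. The order of classes for the ligands did not hold in every library. In TS granulocyte-monocyte progenitor-like barcodes held 943 *Osm* UMIs against 305 in mast or basophil-like barcodes. HSPC-like barcodes held more *Lif* UMIs than mast or basophil-like barcodes in TS (45 against 32) and in CS (20 against 7). The most *Lif* UMIs of CS, 61 of 130, were in barcodes whose clusters got no name. Such unnamed barcodes, which no cell class covers, made up 44.7% of the CS library and 24.5% of TS. Their share was 10.3% in CBM and 9.77% in TBM.

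**Figure D1:**
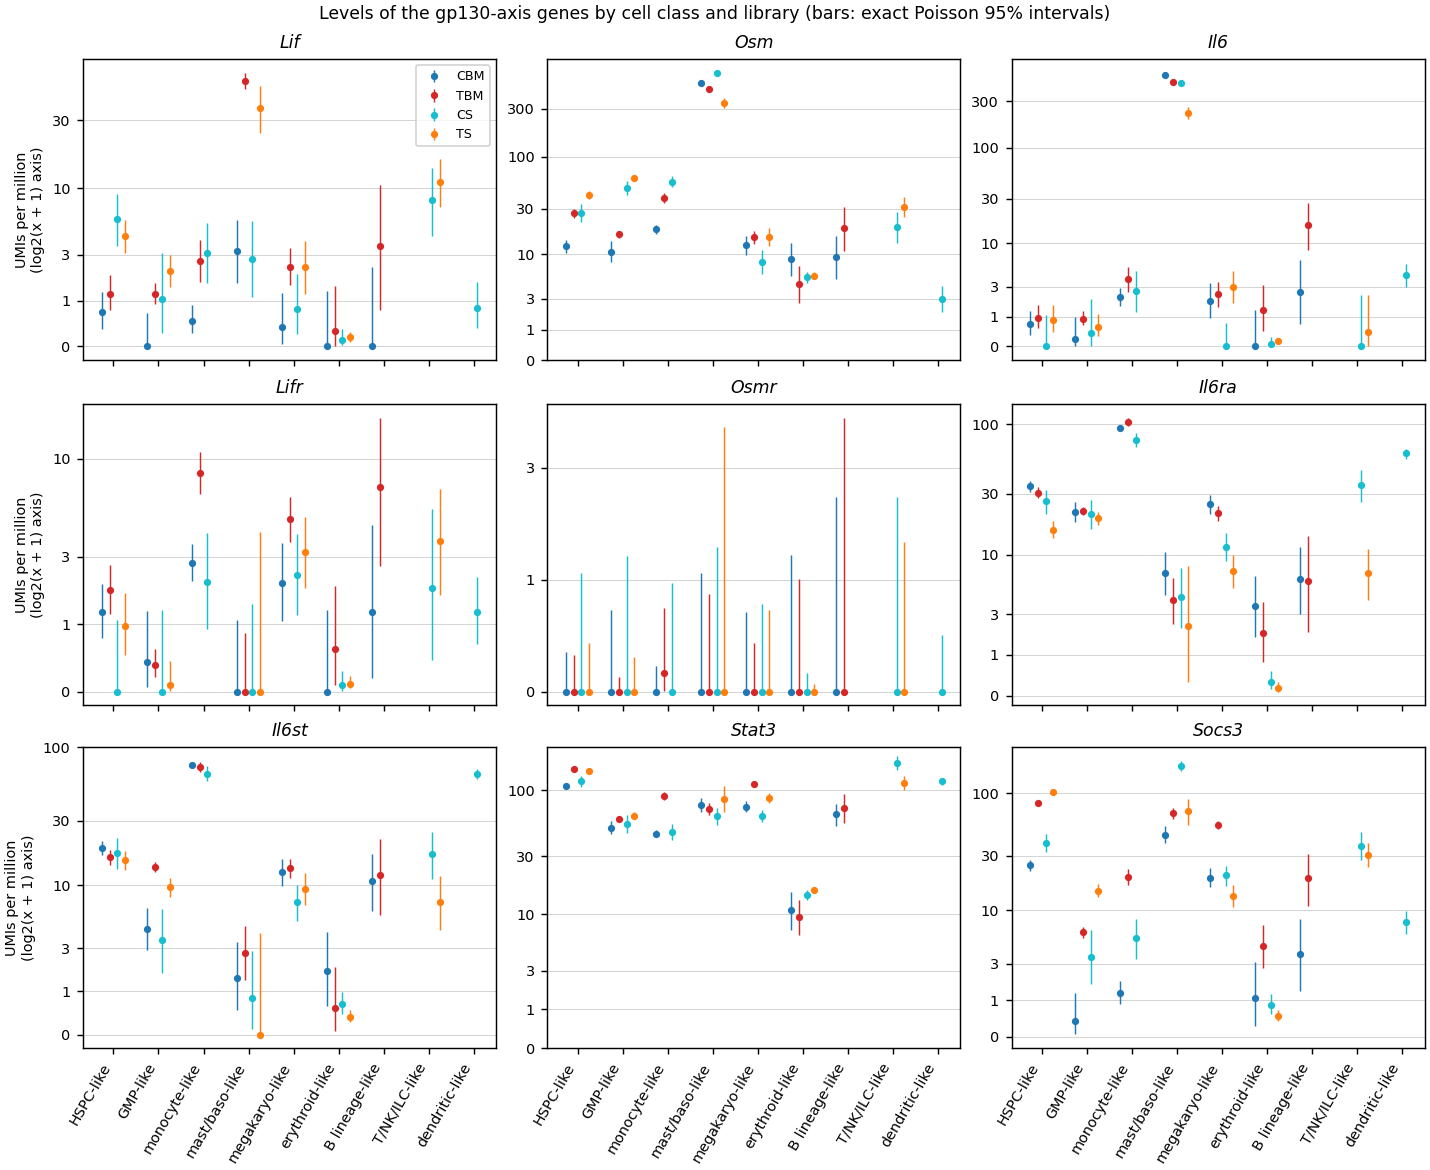
Levels of the axis genes (y axis, CPM on a log2(x + 1) scale) by cell class (x axis) and library (colors), with exact Poisson 95% intervals as bars. *Il6* stands highest in mast or basophil-like barcodes, from 229 to 554 CPM, and *Il6ra* in monocyte-like barcodes, from 76.4 to 104 CPM in the 3 libraries with enough of them.

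*Il6*, the ligand of the IL-6 receptor, was at 554 CPM in CBM and 465 in TBM, and 461 in CS and 229 in TS, in mast or basophil-like barcodes. The TS value was the lowest of the 4 and its interval, 199 to 263, did not overlap the others. In HSPC-like barcodes the same gene was at 0.673, 0.955, 0, and 0.865 CPM, where the 0 in CS allows up to 0.883 CPM. Free RNA, the sum of barcodes with at most 100 UMIs, held *Il6* at 23.6, 21.8, 11.8, and 2.22 CPM, so the HSPC-like levels were below the free RNA in every library. No *Il6* above that background was detectable in HSPC-like barcodes. Monocyte-like barcodes were also below it, at 2.16, 3.76, and 2.61 CPM in CBM, TBM, and CS.

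*Osm*, the ligand of the oncostatin M receptor, was at 534 CPM in CBM and 471 in TBM, and 672 in CS and 343 in TS, in mast or basophil-like barcodes. No other class with at least 50 barcodes came near these levels. The next was neutrophil precursor-like in TBM at 107 CPM, from 54 barcodes. In granulocyte-monocyte progenitor-like (GMP-like) barcodes *Osm* was at 10.7 CPM in CBM and 16.4 in TBM, against 49.0 in CS and 61.5 in TS. CS exceeded CBM by a log2 ratio of 2.19 (95% interval 1.75 to 2.66), and TS exceeded TBM by 1.91 (1.76 to 2.06). With barcodes classed by their highest marker level these ratios were 0.75 and 0.91, short of 2-fold. The GMP-like class was made of different clusters: cluster 4 had 190 of 275 barcodes in CBM and 51 of 65 in CS, but 615 of 1271 in TBM and 116 of 432 in TS, whereas cluster 29 had 2 and 12 barcodes in CBM and CS but 381 and 313 in TBM and TS. Cluster 14 had 83 barcodes in CBM and 275 in TBM. Within cluster 4 *Osm* was at 10.7 CPM in CBM and 8.95 in TBM, against 45.45 in CS and 31.3 in TS. Monocyte-like barcodes held 18.4 CPM in CBM, 38.4 in TBM, and 56.6 in CS. Free RNA held *Osm* at 40.4, 46.9, 37.5, and 24.4 CPM, above the GMP-like level in both marrow libraries and below it in both spleen libraries.

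*Lif*, the ligand of the LIF receptor, was the rarest of the 3 ligands, and in mast or basophil-like barcodes it was higher in both tumor-bearing libraries. Its level was 3.24 CPM in CBM (11 UMIs) and 55.1 in TBM (244 UMIs), and 2.75 in CS (7 UMIs) and 35.9 in TS (32 UMIs). The intervals of the tumor-bearing libraries, 48.4 to 62.5 CPM in TBM and 24.6 to 50.7 in TS, lay above those of both controls. The log2 ratio was 4.09 (3.22 to 5.11) for TBM over CBM, which ranked 13 from the highest among 10607 genes compared, and 3.71 (2.50 to 5.13) for TS over CS, which ranked 6 among 9280. Free RNA held *Lif* at 0, 3.30, 2.17, and 2.50 CPM in CBM, TBM, CS, and TS.

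Within the mast or basophil-like class, the *Lif* UMIs of the tumor-bearing libraries lay mostly in 1 of its 3 clusters. Cluster 1 (led by *Ccl6*, *Ccl3*, *Ccl4*, *Lilr4b*, *Cyp11a1*, and *Cd200r3*, of which the first 3 are chemokine genes) had 411 CBM, 232 TBM, 286 CS, and 45 TS barcodes. Cluster 21, led by the basophil protease genes *Prss34* and *Mcpt8*, held 44, 224, 5, and 21, and cluster 19, led by *Gzmb* and *Lmo4*, held 79, 58, 62, and 39. Most of the class was therefore cluster 1 in CBM and CS, clusters 1 and 21 in TBM, and clusters 1 and 19 in TS. In cluster 1 alone, a comparison added after the data were seen, *Lif* was at 2.21 CPM in CBM and 162 in TBM, and 2.70 in CS and 231 in TS. Tumor-bearing over control gave a log2 ratio of 6.19 (4.81 to 8.08) in marrow and 6.42 (4.92 to 8.38) in spleen. TS over TBM was 0.51 (-0.07 to 1.06) in this cluster. In cluster 21 *Lif* was at 0 in CBM and TS and at 19.9 CPM in TBM, and in cluster 19 it was at 5.74, 0, 3.19, and 0 CPM.

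A *Lif* UMI was found in 2 of the 411 cluster 1 barcodes of CBM (0.487%), 60 of 232 in TBM (25.9%), 4 of 286 in CS (1.40%), and 9 of 45 in TS (20%). The TBM signal was broad, with 32.1% of the cluster's *Lif* UMIs in its 5 highest barcodes, whereas in TS 87.5% of the 32 UMIs lay in 5 barcodes. Cluster 1 barcodes were shallow, and with a minimum of 2000 genes the class kept 184, 340, 159, and 57 barcodes and *Lif* was at 0 in TS but at 34.0 CPM in TBM. The TS value therefore rests on 9 barcodes with fewer than 2000 genes. In TBM 14.8% of all mast or basophil-like barcodes held a *Lif* UMI, against 0.552% of erythroid-like and 0.581% of B lineage-like barcodes, classes that should lack the gene, at median depths of 7005, 14020, and 3410 UMIs. After thinning every barcode to 2000 UMIs the mast or basophil-like share was 8.38% (6.13 to 11.1) in TBM and 0.565% (0.117 to 1.64) in CBM.

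**Figure D2:**
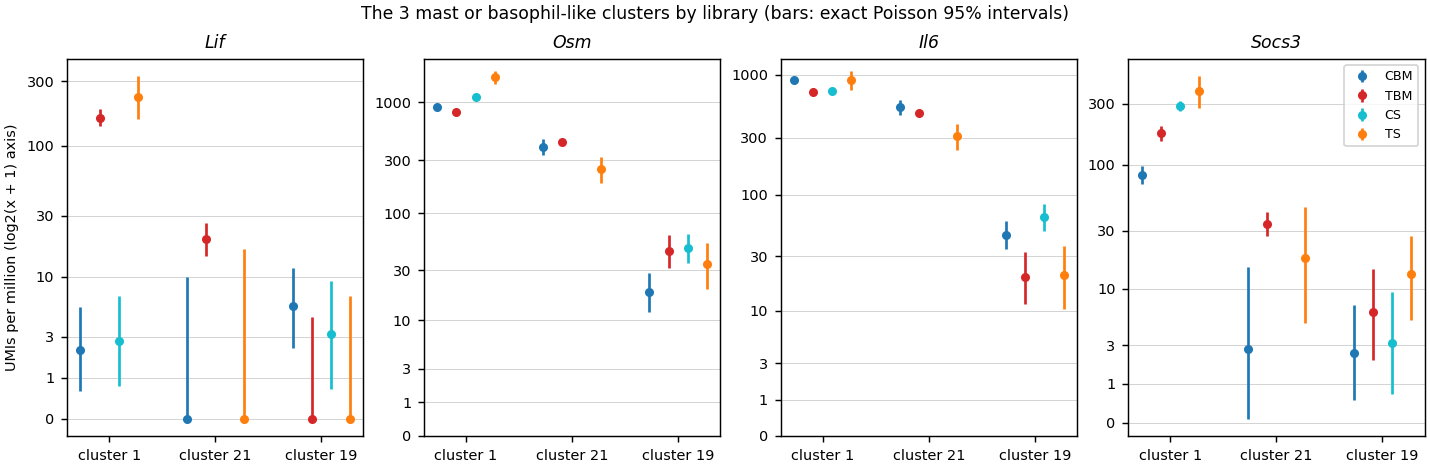
Levels of *Lif*, *Osm*, *Il6*, and *Socs3* (y axis, CPM on a log2(x + 1) scale) in the 3 mast or basophil-like clusters (x axis) by library (colors), with exact Poisson 95% intervals as bars. In cluster 1 *Lif* is at 162 CPM in TBM and 231 in TS, against 2.21 in CBM and 2.70 in CS, whereas *Il6* and *Osm* are high in all 4 libraries.

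The other ligands did not follow *Lif* in cluster 1. *Il6* was at 901, 724, 732, and 902 CPM in CBM, TBM, CS, and TS, and *Osm* at 910, 810.1, 1115, and 1674 CPM. In this cluster *Il6* was 1.23-fold higher in TS than in CS, a log2 ratio of 0.30 (0.02 to 0.57). In TS 49.6% of the cluster's 125 *Il6* UMIs lay in 5 of 45 barcodes. The share of its barcodes with an *Il6* UMI was lower in TS (60%) than in CS (75.2%). After thinning to 2000 UMIs these shares were 53.5% and 56.6%. Over the whole class *Il6* for TS over CS was at -1.01 (-1.23 to -0.79), so the direction of its level between the spleens turned with the clusters included. *Osm* turned as well: TS over CS was -0.97 (-1.15 to -0.79) over the class and 0.59 (0.38 to 0.79) in cluster 1, and TS over TBM was -0.46 (-0.64 to -0.29) and 1.05 (0.83 to 1.26). Of the 9 genes, 5 could be compared for TS over CS in the whole class, where *Lif* was called higher and *Il6* and *Socs3* lower, that is, at least 2-fold with an interval that excludes 0. Over all genes of the class 5.18% were called higher and 7.8% lower. For TBM over CBM 1 of 6 was called higher, *Lif*, against 3.1% of all genes, and none lower against 3.77%. For CS over CBM 1 of 5 was called higher, *Socs3*, against 2.06%, and none lower against 1.87%. For TS over TBM none of 6 was called higher, against 2.79%, and 1 lower, *Il6*, against 3.6%. In cluster 1 alone that *Il6* ratio was 0.32 (0.03 to 0.59), so this direction also turned with the clusters included.

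Outside mast or basophil-like barcodes of the tumor-bearing libraries *Lif* was low. By the mean over libraries with at least 50 barcodes, T, NK or innate lymphoid-like barcodes came next, at 8.20 CPM in CS and 11.1 in TS. In CS this class, HSPC-like barcodes, and monocyte-like barcodes (3.13 CPM) stood above the 2.75 CPM of mast or basophil-like barcodes. In HSPC-like barcodes *Lif* was at 0.673 CPM in CBM (9 UMIs) and 1.23 in TBM (18 UMIs), and 5.89 in CS (20 UMIs) and 4.32 in TS (45 UMIs). Both spleen libraries stood above both marrow libraries, with a log2 ratio of 3.13 (1.93 to 4.45) between the control libraries and 1.82 (1.00 to 2.69) between the tumor-bearing ones. The first ranked 19 from the highest among 12060 genes. With barcodes classed by their highest marker level and not by clusters, *Lif* was not called in either comparison. After thinning to 2000 UMIs no CBM or CS barcode of this class held a *Lif* UMI, so the share of barcodes could not show the difference at that depth.

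The receptor side of the axis was led by monocyte-like barcodes. *Il6ra* was at 93.8 CPM in CBM, 104 in TBM, and 76.4 in CS in that class. Dendritic cell-like barcodes of CS held 60.4 CPM and neutrophil precursor-like barcodes of TBM 64.7 CPM. *Il6st*, the shared signal transducer, was at 74.8, 72.4, and 65.2 CPM in monocyte-like barcodes of CBM, TBM, and CS and at 65.0 CPM in dendritic cell-like barcodes of CS. Mast or basophil-like barcodes, the main holders of the ligands, had little of either: *Il6ra* did not exceed 7.07 CPM and *Il6st* did not exceed 2.71 CPM in any library. Free RNA held *Il6ra* at 30.1, 16.2, 4.54, and 3.604 CPM and *Il6st* at 34.4, 15.9, 7.90, and 3.88 CPM.

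In HSPC-like barcodes *Il6ra* was at 34.2 CPM in CBM and 30.6 in TBM, and 26.2 in CS and 15.9 in TS. TS was the lowest, and its interval, 13.5 to 18.5, did not overlap the other 3. Within HSPC-like cluster 3 *Il6ra* was at 33.2, 20.8, 18.8, and 14.2 CPM in CBM, TBM, CS, and TS. There the TS interval overlapped those of TBM and CS. Within cluster 0 it was at 34.5, 35.7, 29.2, and 13.7 CPM, the TS value on 6 UMIs in 44 barcodes. That TS interval, 5.02 to 29.8, lay below those of CBM and TBM and overlapped that of CS. Over the whole class the log2 ratio was -0.73 for TS over CS and -0.95 for TS over TBM, short of 2-fold in each. *Il6st* was at 19.1, 16.3, 17.4, and 15.4 CPM, and these 4 intervals overlapped. The CBM level was below the 34.4 CPM of the free RNA in that library. Within cluster 0 *Il6st* was at 19.9, 18.3, 11.5, and 4.56 CPM, the TS value on 2 UMIs. In CBM, 5.42% of all thinned HSPC-like barcodes held an *Il6ra* UMI, against 1.23% of B lineage-like and none of 126 erythroid-like barcodes. Megakaryocyte-like barcodes showed a tissue difference in *Il6ra*, with 24.9 CPM in CBM and 21.3 in TBM against 11.6 in CS and 7.28 in TS. The spleen over marrow log2 ratio there was -1.10 (-1.56 to -0.65) in controls and -1.55 (-2.06 to -1.06) in tumor-bearing mice, and -0.82 and -0.84 with clusters at resolution 2.0, short of 2-fold. The megakaryocyte-like level in CBM was below the 30.1 CPM of its free RNA. Free RNA was also lower in spleen, at 4.54 CPM in CS and 3.604 in TS against 16.2 in TBM. Its part in these ratios was not tested. In T, NK or innate lymphoid-like barcodes, 93 in CS and 128 in TS, both receptor genes were lower in TS. *Il6ra* was at 34.7 CPM in CS (55 UMIs) and 7.002 in TS (17 UMIs), a ratio of -2.31 (-3.186 to -1.502), and *Il6st* at 17.02 CPM (27 UMIs) and 7.41 (18 UMIs), a ratio of -1.20 (-2.15 to -0.29). With classes set by the highest marker level the *Il6st* ratio was -0.25 (-1.38 to 0.83), not called. They were 2 of 6 members called lower there, with none higher, against 7.56% and 2.28% of all genes.

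*Lifr* was at or below 8.48 CPM in every hematopoietic class compared. It was highest in monocyte-like barcodes of TBM, at 8.48 CPM (70 UMIs) against 2.77 in CBM (59 UMIs), a log2 ratio of 1.62 (1.10 to 2.14). The monocyte-like class was mostly cluster 6 in TBM (253 of 283 barcodes), but clusters 6 and 12 in CBM (401 and 417 of 818) and mostly cluster 12 in CS (76 of 97). Within cluster 6 *Lifr* was at 6.79 CPM in CBM (50 UMIs) and 9.34 in TBM (66 UMIs), with overlapping intervals. In megakaryocyte-like barcodes it was at 2.07 CPM in CBM and 4.90 in TBM, and 2.32 in CS and 3.20 in TS, and the TBM over CBM ratio was 1.24 (0.32 to 2.28). Free RNA held 1.72 and 3.30 CPM in CBM and TBM. In HSPC-like barcodes *Lifr* was at 1.27, 1.84, 0, and 0.961 CPM, on 17, 27, 0, and 10 UMIs, too few to separate the libraries. No mast or basophil-like barcode of any library held a *Lifr* UMI. The few barcodes of the endothelial-like class held 3 *Lifr* UMIs in 1 of 13 barcodes in CBM (35.2 CPM), 20 in 7 of 11 in CS (346 CPM), and 2 in 1 of 7 in TS (23.3 CPM). In TBM this class was 2 barcodes, both with at least 3 stromal markers, and 1 of them held 8 *Lifr* UMIs, so that value is not an endothelial level.

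*Osmr* was at 0 in HSPC-like barcodes of all 4 libraries, which, at 3 counts per library, allows up to 0.224 CPM in CBM and 0.205 in TBM, and 0.883 in CS and 0.288 in TS. In the 7 barcodes with stromal markers, all of the endothelial-like class, 1 held 6 *Osmr* UMIs and 1 held 8 *Lifr* UMIs. No condition could be compared for *Osmr* in any class.

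*Stat3* was at 109 CPM in CBM and 146 in TBM, and 118 in CS and 141 in TS in HSPC-like barcodes, higher in each tumor-bearing library but by less than 1.5-fold. The log2 ratio was 0.42 for TBM over CBM and 0.26 for TS over CS. In spleen *Stat3* was at 168 CPM in CS and 166 in TS within HSPC-like cluster 18. It was at 112 and 120 CPM within cluster 3 and 107 and 141 within cluster 0, with overlapping intervals in each. In marrow it was at 119 CPM in CBM and 170 in TBM within cluster 0, and 76.6 and 98.3 within cluster 3, with intervals apart. Erythroid-like barcodes had the lowest *Stat3* of the classes with at least 50 barcodes, from 9.50 to 15.9 CPM. Monocyte-like barcodes of TBM held 89.6 CPM of *Stat3* against 45.3 in CBM and 46.9 in CS, and within cluster 6 alone the levels were 94.7, 65.97, and 70.35 CPM.

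*Socs3*, the feedback inhibitor, was higher in HSPC-like barcodes of both tumor-bearing libraries. Its level was 24.98 CPM in CBM (334 UMIs) and 83.0 in TBM (1216 UMIs), and 38.3 in CS (130 UMIs) and 103 in TS (1070 UMIs). The log2 ratio was 1.73 (1.56 to 1.91) for TBM over CBM, which ranked 77 from the highest among 12704 genes, and 1.43 (1.16 to 1.70) for TS over CS, which ranked 92 among 11605. After thinning to 2000 UMIs, a *Socs3* UMI was held by 4.22% (2.95 to 5.82) of CBM barcodes against 16.1% (13.8 to 18.6) of TBM barcodes, and by 5.16% (2.25 to 9.92) of CS barcodes against 17.7% (14.9 to 20.8) of TS barcodes. Without thinning the shares were 25.9%, 59.0%, 36.1%, and 64.5%. The thinned shares in B lineage-like barcodes were 0 in CBM and 2.34% in TBM, and in erythroid-like barcodes they did not exceed 0.552% in any library. Free RNA held *Socs3* at 8.17, 29.7, 12.8, and 11.6 CPM, below the HSPC-like level in every library.

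The HSPC-like class was made of different clusters in the 4 libraries. Cluster 0 held 707 of 830 barcodes in CBM, 693 of 919 in TBM, and 91 of 155 in CS, but 44 of 678 in TS, where cluster 3 held 252 and cluster 18 held 382. Cluster 18 was led by the stress and immune genes *Cxcl2*, *Dusp2*, *Btg2*, and *Egr1* and by *Socs3* itself. Within cluster 0 *Socs3* was at 29.1, 96.6, 33.2, and 123 CPM in CBM, TBM, CS, and TS, and within cluster 3 it was at 12.9, 57.0, 35.1, and 68.6 CPM. The tumor-bearing library was higher than its control in both of these clusters. For TS over CS the log2 ratio within cluster 3 was 0.97 (0.50 to 1.47), just under 2-fold, with 35 CS barcodes.

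**Figure D3:**
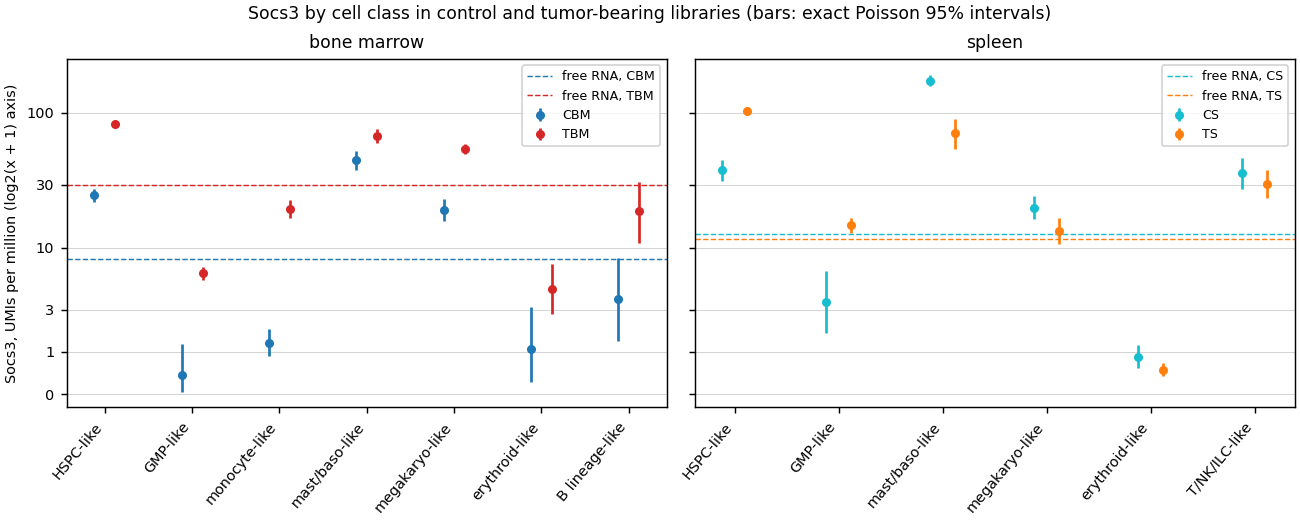
Level of *Socs3* (y axis, CPM on a log2(x + 1) scale) by cell class (x axis) in control and tumor-bearing bone marrow (left) and spleen (right), with exact Poisson 95% intervals as bars and the level in free RNA as dashed lines. In bone marrow the TBM point lies above the CBM point in HSPC-like (83.0 against 24.98 CPM), megakaryocyte-like (54.5 against 19.5), and monocyte-like barcodes (19.8 against 1.31), and in spleen mast or basophil-like barcodes go the other way (70.8 in TS against 169.8 in CS).

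In bone marrow *Socs3* was higher in TBM than in CBM in other classes too. Megakaryocyte-like barcodes had 19.5 CPM in CBM and 54.5 in TBM, a log2 ratio of 1.48 (1.19 to 1.79). Monocyte-like barcodes went from 1.31 to 19.8 CPM, a ratio of 3.91 (3.33 to 4.55). GMP-like barcodes went from 0.357 CPM (2 UMIs) to 6.25 CPM (242 UMIs), a ratio of 4.13 (2.26 to 7.19). Within clusters these 2 differences remained: *Socs3* was at 1.49 CPM in CBM and 21.5 in TBM in monocyte-like cluster 6, and at 0.206 CPM (1 UMI) and 3.70 CPM (79 UMIs) in GMP-like cluster 4. The levels in monocyte-like and GMP-like barcodes of TBM were below the 29.7 CPM of the free RNA in that library, and the part of free RNA in these 2 ratios was not tested. The same direction was seen in B lineage-like barcodes, from 3.79 to 19.3 CPM, and in erythroid-like barcodes, from 1.08 to 4.62 CPM, also below the free RNA, and with 10% of ambient RNA subtracted both had too few UMIs to compare. Mast or basophil-like barcodes had 45.4 CPM in CBM and 68.2 in TBM, a ratio of 0.59 (under 2-fold). Of the 9 genes, 3 of 8 compared were called higher and none lower in megakaryocyte-like barcodes for TBM over CBM (*Lif*, *Lifr*, *Socs3*), where 2.41% of all genes were called higher and 1.41% lower. *Lif* there rested on 25 UMIs in 7 barcodes of TBM, 2.35 CPM, against 2 UMIs in CBM. In GMP-like barcodes 3 of 7 were called higher and none lower (*Lif*, *Il6st*, *Socs3*), against 2.72% and 1.87% of all genes. *Lif* there was at 1.21 CPM in TBM (47 UMIs in 19 barcodes) and at 0 in CBM, so that its log2 ratio is a bound of at least 1.18 with CBM set to 3 counts, and this bound was under 2-fold, at 0.48, with the 5% highest doublet scores left out. *Il6st* was at 4.46 CPM in CBM and 13.7 in TBM over the GMP-like class, but at 2.06 and 2.39 CPM within cluster 4 and 22.7 and 23.2 within cluster 14, and cluster 29, with 2 CBM barcodes, held 28.0 CPM in TBM. In monocyte-like barcodes 4 of 8 were called higher and none lower (*Lif*, *Osm*, *Lifr*, *Socs3*), against 3.78% and 4.54%. *Lif* there rested on 22 UMIs in 3 barcodes of TBM, 2.67 CPM, against 10 UMIs in CBM. The *Lif* levels of TBM in these 3 classes were all below the 3.30 CPM of its free RNA. With 10% of ambient RNA subtracted the log2 ratios were 2.52 in megakaryocyte-like and 2.30 in monocyte-like barcodes, and the GMP-like bound was 0.72, under 2-fold. With the 5% highest doublet scores left out, *Lif* had too few UMIs to compare in megakaryocyte-like and monocyte-like barcodes. Within cluster 6 *Osm* was at 25.4 CPM in CBM and 42.0 in TBM and within cluster 12 at 14.8 and 16.9 CPM, so *Osm* and *Lifr* were both under 2-fold in cluster 6.

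In spleen the classes differed in direction. *Socs3* was at 3.55 CPM in CS (10 UMIs) and 15.0 in TS (230 UMIs) in GMP-like barcodes, a log2 ratio of 2.08 (1.17 to 3.16). The CS barcodes of this class were mostly cluster 4 and the TS barcodes mostly cluster 29, and within cluster 4 *Socs3* was at 3.496 CPM in CS and 3.57 in TS. In mast or basophil-like barcodes it was at 169.8 CPM in CS and 70.8 in TS, a ratio of -1.26 (-1.67 to -0.88). Within cluster 1 the same comparison was 289 against 375 CPM, a ratio of 0.37 (-0.07 to 0.79). In TS 69.2% of the cluster's 52 *Socs3* UMIs lay in 5 of 45 barcodes. A *Socs3* UMI was held by 46.85% of its barcodes in CS and 35.6% in TS, and by 29.4% and 32.6% after thinning. Megakaryocyte-like barcodes had 20.3 CPM in CS and 13.5 in TS, and TS was below the 54.5 CPM of TBM by a log2 ratio of -2.01 (-2.38 to -1.67).

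**Figure D4:**
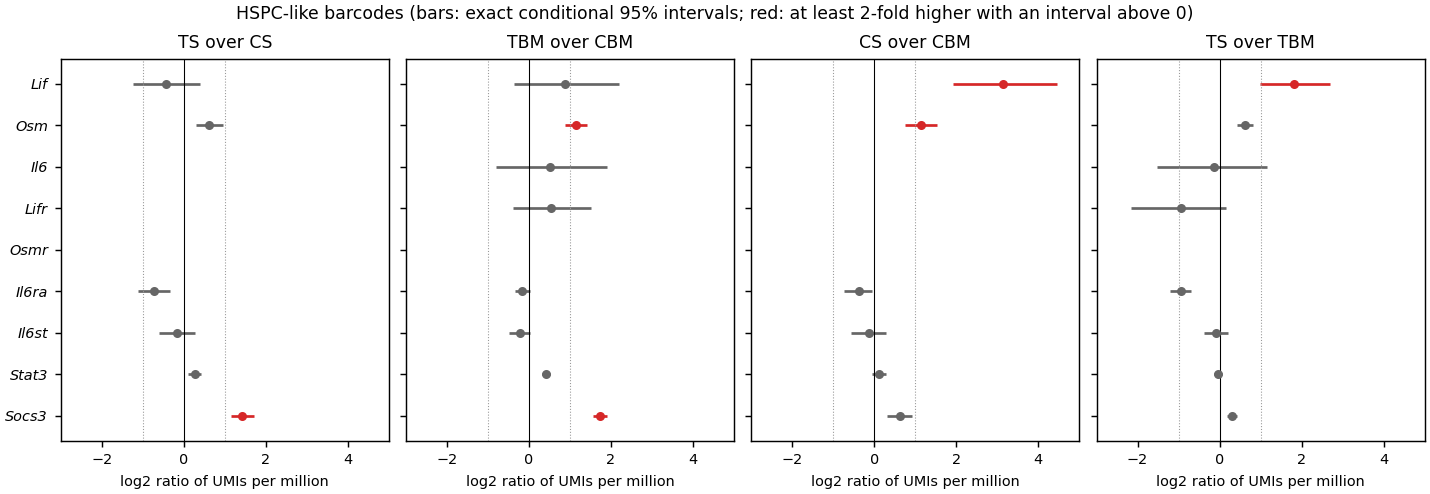
Log2 ratios of CPM (x axis) in HSPC-like barcodes for the axis genes (y axis) in the 4 comparisons (panels), with exact conditional 95% intervals as bars, dotted lines at 2-fold, and red for genes at least 2-fold higher with an interval above 0. *Socs3* is at 1.43 for TS over CS and 1.73 for TBM over CBM, and *Lif* is higher in spleen, at 3.13 between controls and 1.82 between tumor-bearing libraries.

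*Osm* in HSPC-like barcodes was at 12.3 CPM in CBM and 27.0 in TBM, and 27.1 in CS and 41.5 in TS. CBM was the lowest and TS the highest, and the levels of TBM and CS overlapped. Log2 ratios were 1.14 (0.87 to 1.41) for TBM over CBM, 1.14 (0.76 to 1.52) for CS over CBM, and 0.62 for each of TS over CS and TS over TBM. The thinned shares were 2.05% in CBM and 4.03% in TBM, and 2.58% in CS and 6.64% in TS, against 1.23% and 0.585% of B lineage-like barcodes in CBM and TBM. Free RNA held more *Osm* than HSPC-like barcodes in CBM, TBM, and CS, and its part in these ratios was not tested. When barcodes were classed by their highest marker level and not by clusters, TBM over CBM was -0.67 (-1.47 to 0.06) and CS over CBM was 0.41 (-0.15 to 0.97), so neither was called.

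Counted over the 9 genes in HSPC-like barcodes, 1 of 6 compared was called higher for TS over CS (*Socs3*) and none lower, where 1.19% of all genes were called higher and 2.96% lower. For TBM over CBM 2 of 8 were called higher (*Osm* and *Socs3*) and none lower, against 1.94% and 2.25% of all genes. For CS over CBM 2 of 6 were called higher (*Lif* and *Osm*) and none lower, against 1.87% and 1.32%. For TS over TBM 1 of 8 was called higher (*Lif*) and none lower, against 1.35% and 3.2%. The comparisons share libraries and are given side by side.

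**Figure D5:**
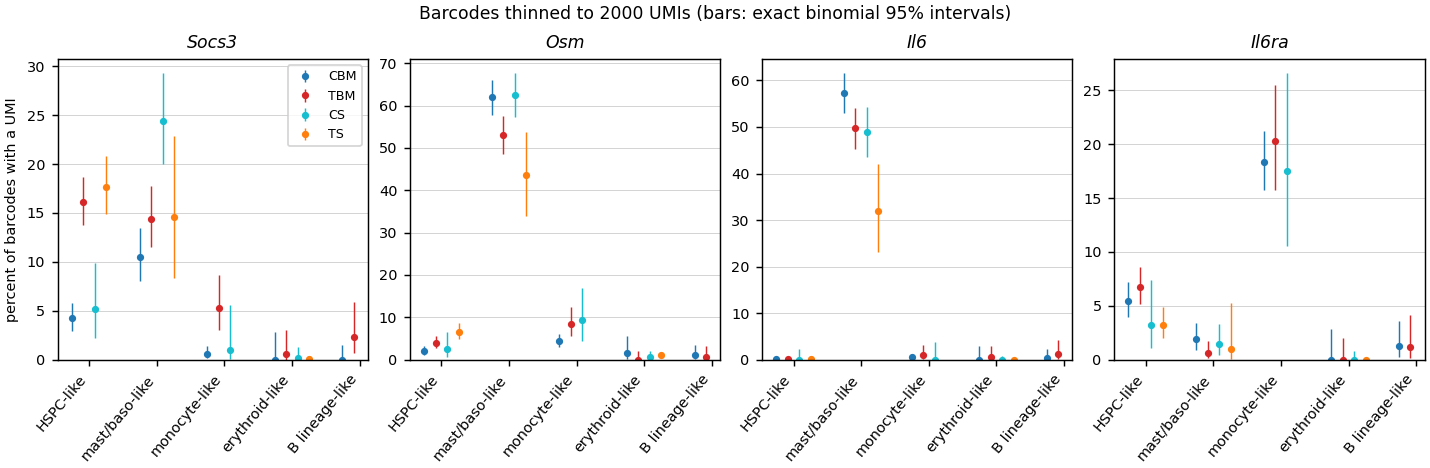
Percent of barcodes with a UMI (y axis) by cell class (x axis) and library (colors) for members of the axis, each barcode thinned to 2000 UMIs, with exact binomial 95% intervals as bars. For *Socs3* in HSPC-like barcodes TBM (16.1%) and TS (17.7%) lie above CBM (4.22%) and CS (5.16%).

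At most 1 of the other genes of the pathway was called in any comparison in HSPC-like barcodes. In both tumor comparisons several genes short of the 2-fold call still differed, with intervals that excluded no change. Of 23 further ligands, receptors, kinases, STATs, and regulators, 17 could be compared for TS over CS and 21 for TBM over CBM, and in each comparison 1 was called lower and none higher, where 2.96% and 2.25% of all genes were called lower. That gene was *Ebi3*, which encodes a subunit of IL-27 and IL-35, at 25.1 CPM in CBM and 9.14 in TBM, and 22.1 in CS and 8.07 in TS. Tumor-bearing over control gave a log2 ratio of -1.46 (-1.76 to -1.17) in marrow and -1.45 (-1.92 to -0.98) in spleen. The kinase gene *Jak1* was between 145 and 153 CPM in all 4 libraries, and *Jak2* between 28.7 and 34.8. The inhibitor gene *Socs1* was at 6.28, 7.92, 8.25, and 11.4 CPM, and *Cish*, an inhibitor induced by STAT5, at 18.6, 27.8, 19.1, and 22.2 CPM. The *Cish* log2 ratio was 0.59 (0.36 to 0.82) for TBM over CBM, short of 2-fold, and 0.21 (-0.19 to 0.63) for TS over CS. No pathway gene was called for CS over CBM (19 compared) or TS over TBM (21 compared).

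A minority of the genes known as STAT3 targets passed the call in the tumor comparisons. Of 12 compared for TS over CS, 3 were called higher and none lower, against 1.19% and 2.96% of all genes: *Bcl3*, an atypical IkB protein, from 9.42 to 24.3 CPM, the repressor *Bcl6* from 3.53 to 8.36 CPM, and the adhesion molecule *Icam1* from 46.2 to 97.1 CPM. For TBM over CBM 2 of 13 were called higher and none lower, against 1.94% and 2.25% of all genes, *Bcl3* from 9.20 to 20.2 CPM and *Lrg1* from 1 UMI to 19. The median log2 ratio of the list was 0.37 for TS over CS and 0.22 for TBM over CBM, beside -0.05 and -0.01 over all genes. *Pim1*, a kinase target, was at 502, 585, 621, and 785 CPM. *Ccnd1* went the other way, short of 2-fold. Its log2 ratio was -0.90 (-1.26 to -0.53) for TS over CS and -0.78 (-0.98 to -0.58) for TBM over CBM. No target was called for CS over CBM (12 compared) or TS over TBM (13 compared).

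Dissociation and immediate-early genes, 16 in number, were counted in the same comparisons. In HSPC-like barcodes 7 of 16 were called higher and none lower for CS over CBM, where *Lif* and *Osm* were called and 1.87% of all genes were higher and 1.32% lower. For TS over TBM, where *Lif* was called, 4 of 16 were higher and 1 lower, against 1.35% and 3.2% of all genes. For TBM over CBM, where *Osm* and *Socs3* were called, none of 15 was called in either direction, against 1.94% and 2.25%, and for TS over CS none of 16 was called higher and 4 were called lower, against 1.19% and 2.96%. In GMP-like barcodes, where *Osm* was called for both, 12 of 15 were higher for CS over CBM and 7 of 16 for TS over TBM, with none lower. Of all genes there, 2.31% were higher and 0.683% lower for CS over CBM, and 1.9% and 2.21% for TS over TBM. The part of the immediate-early genes in the *Lif* and *Osm* differences between tissues was not tested.

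In mast or basophil-like barcodes *Cish* was at 46.3 CPM in CBM and 147 in TBM, and 57.4 in CS and 84.3 in TS. Its log2 ratio was 1.66 (1.41 to 1.93) for TBM over CBM, 1 of 2 pathway genes called higher there of 17 compared, with 2 called lower, against 3.1% and 3.77% of all genes. For TS over CS 1 of 14 pathway genes compared was called higher and 3 lower, against 5.18% and 7.8%. *Socs1* was at 70.1, 124, 99.0, and 85.4 CPM. These *Cish* and *Socs1* levels are over the whole class, whose clusters differ in share between libraries. Their ratios within cluster 1 alone were not computed.

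Across 29 groups of class and library, with 8349 genes compared, the genes with the most similar levels on a log2(CPM + 1) scale were named for each member, as a description. The groups share libraries and depth. *Il6* was nearest to *Cd200r3* (r = 0.964), *C3ar1* (0.964), and *Cyp11a1* (0.955), and *Osm* to *Id1* (0.926) and *Hdc* (0.906), the gene of histidine decarboxylase. *Lif* was nearest to the mast cell protease gene *Cpa3* (0.769), *Il6ra* to *Vav3* (0.888), *Il6st* to *Klf4* (0.873), *Lifr* to *Mtmr2* (0.714), and *Stat3* to *Usp22* (0.909). *Socs3* was nearest to *Ifitm1* (0.880), *Pim1* (0.863), and *Tmod3* (0.830).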

How the data were processed

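Single-cell RNA-seq of 4 libraries (10x Genomics) was analysed, 1 per group. Per the labels, the authors aligned reads to mm10 with Cell Ranger 4.0, and the deposited values are unfiltered UMI counts per gene and barcode, before the cell selection, ambient RNA removal, and normalization of the study. Total counts were 101811035, 135207987, 145301019, and 176094297 UMIs in CBM, TBM, CS, and TS. Here, barcodes with at least 1000 genes and at most 10% mitochondrial UMIs were kept; the second filter left out 13.9%, 14.4%, 14.4%, and 7.92% of the barcodes that passed the first. They were clustered on Pearson residuals (theta 100, 50 components, 20 neighbors, Leiden resolution 1.2; scanpy 1.11.5, Python 3.11.15) without 61 genes, the 9 members and the lists among them. This gave 34 clusters, 10 of them unnamed. Names needed 3 detected markers. No doublets were removed, and an alternative left out the highest 5% of Scrublet scores.

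Levels have exact Poisson 95% intervals, shares exact binomial ones, and ratios exact conditional ones (scipy 1.17.1). A ratio was computed where both libraries had at least 50 barcodes of the class and together 20 UMIs of the gene, and called at 2-fold or more with an interval excluding 0. A gene at 0 was set to 3 counts. The scripts were tested on simulated data. Members, lists, and named genes were chosen with earlier results of these data known. The named genes were all 9 members, list genes called in HSPC-like barcodes, and *Jak1*, *Jak2*, *Socs1*, and *Cish*. *Pim1*, *Ccnd1*, and the list of immediate-early genes served as context. Gene positions come from the GENCODE annotation of GRCm38 and promoters from RefSeq. Alternatives changed the gene and mitochondrial filters, clustering resolution, class assignment, scaling, ambient subtraction, doublets, fold, and minimum counts, and 4 single-cluster alternatives were added after the data were seen. A result for 1 further pathway gene is not reported here.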

Additional observations from a re-analysis of the deposited data

Results flagged for a closer look

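*Socs3* in mast or basophil-like barcodes moved in opposite directions in the 2 tissues, with a log2 ratio of -1.26 for TS over CS and 0.59 for TBM over CBM. *Socs3* in megakaryocyte-like barcodes did the same, at -0.59 for TS over CS and 1.48 for TBM over CBM. Each interval excludes 0, but with 1 library per group the difference between tissues was not tested. In mast or basophil-like cluster 1 alone, *Socs3* was at a log2 ratio of 0.37 (-0.07 to 0.79) for TS over CS, an interval that includes 0, and at 1.09 (0.79 to 1.41) for TBM over CBM.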

How the results depend on the processing

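No paired analysis was possible because each group has 1 library, and for the same reason no library could be left out of a group. Over the alternatives listed in the methods, the called ratios kept their direction and their call in 355 cases, lost the call in 31, and reversed in 4, and ratios not called gained a call in their own direction in 71. The alternatives added after seeing the data gave 16, 3, 3, and 7. The 1.5-fold threshold could only add calls, and the minimum of 50 UMIs left a ratio unchanged or not compared. Ratios that could not be compared under an alternative are in none of these counts. The log2 ratio of *Socs3* in HSPC-like barcodes ranged from 1.501 to 2.14 for TBM over CBM and from 0.97 to 2.15 for TS over CS, *Lif* in mast or basophil-like barcodes from 3.34 to 6.19 and from 3.48 to 6.42, and *Lif* in HSPC-like barcodes from 2.999 to 3.74 for CS over CBM. These ranges cover only settings in which the ratio could be compared. With classes set by the highest marker level, *Lif* was no longer called in HSPC-like barcodes. The members called there were *Il6* and *Il6ra*, both lower, for CS over CBM, and *Il6ra*, lower, for TS over TBM. For TBM over CBM they were *Socs3*, higher, and *Il6*, lower. The number of members called in HSPC-like barcodes for TS over TBM rose from 1 to 2 at resolution 2.0 and with scaling without mitochondrial, hemoglobin, and ribosomal protein genes (*Il6ra* lower in both), to 3 at a 1.5-fold threshold and without cluster 18, and to 2 in cluster 0 alone. The 2 called in cluster 0 were *Il6ra* and *Il6st*, both lower, on 6 and 2 TS UMIs. *Lif*, with 1 UMI in TS and 13 in TBM, had too few UMIs to compare there. For TS over CS the number called rose to 3 at 1.5-fold and fell to 0 in cluster 3 alone, for CS over CBM it rose to 3 at 1.5-fold and fell to 1 with at least 50 UMIs and in cluster 0 alone, and for TBM over CBM it fell to 1 in cluster 0 alone. For CS over CBM and TBM over CBM the call lost in cluster 0 was *Osm*. It was at 12.85 CPM in CBM, 25.64 in TBM, and 24.65 in CS there, just short of 2-fold. With classes set by the highest marker level, *Osm* in HSPC-like barcodes for TBM over CBM reversed to -0.67, and *Il6st* in GMP-like barcodes to -1.02 for TS over CS and -0.88 for TBM over CBM; the first of these *Il6st* ratios was also -0.11 at resolution 0.6. In cluster 1 alone, with 45 TS barcodes, *Il6* reversed to 0.30 for TS over CS and 0.32 for TS over TBM, and *Socs3* to 0.37 for TS over CS. The causes were not tested. With a minimum of 2000 genes *Lif* for TS over CS in mast or basophil-like barcodes had too few UMIs to be compared. At a depth of 2000 UMIs *Lif*, *Lifr*, and *Osmr* were too sparse for shares of barcodes in HSPC-like barcodes.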

Other observations

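Within cluster 1, barcodes with a *Lif* UMI were set beside those without, 60 against 172 in TBM and 9 against 36 in TS. Of 1083 genes compared, *Lif* left out, each with at least 50 UMIs over both sets of barcodes together in TBM and 20 in TS, 14 (1.29%) were at least 2-fold higher in *Lif*-positive barcodes with an interval above 0 in TBM and 27 (2.49%) in TS, and 5 were so in both libraries. They were the cytokine inhibitor genes *Cish* (log2 ratio 1.2 in TBM and 1.51 in TS), *Socs1* (1.34 and 1.02), and *Socs3* (1.02 and 2.49), the actin regulator gene *Enah* (1.41 and 1.59), and the transcription factor gene *Xbp1* (1.00 and 1.28). The genes were chosen after their values were seen, cells of 1 library are not replicates, and the values describe these barcodes.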
